A study of Mus musculus with 4 samples.

Results

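Malat1, Neat1 and the noncoding snoRNA host transcripts Gas5, Snhg1, Snhg3, Snhg5, Snhg6, Snhg8 and Snhg12 were followed in Ter119+ bone marrow cells of mice labelled Med16 KO and Med16 fl/fl. These 9 genes were chosen by symbol out of the 56691 genes in the count tables, and each symbol matched 1 identifier. All 9 passed the filter on low counts and were among the 13052 genes tested. The KO libraries carry the genotype label Med16 KO and the reference libraries the label Med16 fl/fl, that is, floxed alleles of Med16, which encodes a subunit of the Mediator complex between transcription factors and RNA polymerase II. All 4 libraries, 2 per genotype, have the tissue label bone marrow, the cell label Ter119+, an erythroid surface antigen, and a time label of 3 weeks. The recombinase, its promoter, the starting point of the time label and any pooling of animals are not given in the labels, nor is it stated whether each library is a different animal. The p-values then set the genotype difference against a spread between libraries that may be only technical. That spread was estimated in large part from all tested genes (13.1 prior against 2 residual degrees of freedom). Libraries are named KO 1, KO 2, fl/fl 1 and fl/fl 2.

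Malat1 and Neat1 are long noncoding RNAs that stay in the nucleus and are transcribed from neighbouring genes. Malat1 collects in nuclear speckles, the stores of splicing factors, and Neat1 is the scaffold of paraspeckles, bodies that hold RNA-binding proteins such as NONO and SFPQ. The snoRNA hosts are genes whose introns carry small nucleolar RNAs, which guide the chemical modification of ribosomal RNA. Their spliced exons are exported, begin with an oligopyrimidine tract like ribosomal protein mRNAs in the best studied cases such as Gas5, and are degraded when translated, by nonsense-mediated decay. Red cell precursors condense and expel their nucleus at the end of maturation, so a Ter119+ fraction holds cells with and without a nucleus.

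The libraries held 6948951 and 6749196 counts assigned to genes in KO and 7216333 and 7048208 in fl/fl, and levels are given in CPM, assigned counts scaled to a common total with TMM factors. On that scale 1 count equalled 0.140 to 0.147 CPM. Med16 itself had 16 and 30 counts in KO and 164 and 127 in fl/fl, a log2 fold change of -2.64 (SE 0.34, edgeR quasi-likelihood test, adjusted p = 4.6e-05). Of all genes tested, 2400 (18.4%) were called at an adjusted p under 0.05, with 1109 (8.5%) higher and 1291 (9.89%) lower in KO. An unadjusted p under 0.05 was found for 3965 of the 13052 genes. All 10 erythroid markers examined were present, with a summed level of 105760 and 109466 CPM in KO against 123268 and 126216 CPM in fl/fl, and 8 of the 10 fell while 1 rose. Markers of other marrow cells moved as well. Of 13 neutrophil genes 12 rose, with sums of 19720 and 20113 CPM in KO against 14006 and 13856 CPM in fl/fl. Of 9 megakaryocyte and platelet genes tested 7 rose, with sums of 228 CPM in both KO libraries against 110 and 97.5 CPM in fl/fl, and Gp1bb was the only one of the 10 listed with no count in any library. The rises numbered 4 without fl/fl 1 and 4 without fl/fl 2. Monocyte and macrophage genes gave 3 higher and 1 lower of 8, with sums of 665 to 673 CPM in KO and 543 to 556 CPM in fl/fl. B lineage genes gave 1 higher of 9, a call that was absent without fl/fl 1 or fl/fl 2, while 4 genes were called without KO 1, with sums of 237 to 238 CPM in KO and 240.3 to 259 CPM in fl/fl. T and NK genes gave no call among 5 tested by edgeR or DESeq2 and 1 at an unadjusted p under 0.05, with sums of 50.02 to 52.7 CPM in KO and 41.1 to 42.5 CPM in fl/fl. Immediate early genes, which handling can raise, gave 9 higher and 1 lower of 15, with sums of 5965 to 5987 CPM in KO and 4333 to 4446 CPM in fl/fl. The part of these shifts in the results below was not tested.

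Malat1 was by far the most abundant of the 9 and fell in Med16 KO. It had 3297 and 3297 counts in the KO libraries against 5011 and 4828 in the fl/fl libraries, which is 462 and 484 CPM in KO and 707 and 698 CPM in fl/fl. Both KO libraries lay below both fl/fl libraries, and the libraries of a genotype differed by little. The mean was 473 ± 15.5 CPM in KO and 703 ± 6.57 CPM in fl/fl (SD, n = 2 each), a fold of 0.673 with a 95% interval of 0.626 to 0.722. On the log2 scale it fell by 0.57 (SE 0.05, edgeR adjusted p = 6.3e-07). It ranked 100 of 13052 by p, but 1417 by log2 fold change counted from the lowest. In bulk RNA, fewer cells with a transcript and less of it per cell cannot be told apart. The call held in 11 of 12 alternatives, with log2 fold changes between -0.62 and -0.42. It was lost with an assumed biological coefficient of variation of 0.2 in place of the estimate (adjusted p = 0.293).

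The 3′ end of Malat1 bears on how a poly(A) library captures it. The mature RNA has no added poly(A) tail. It is cut by RNase P upstream of a small tRNA-like RNA and ends in an encoded run of A that folds into a triple helix with upstream runs of U. In the GENCODE M21 transcript Malat1-201 (build GRCm38, chromosome 19, minus strand, 6983 bases), the longest run of A had 12 bases and began at base 6674. It is shown, in capitals, because it is the tract that stands in for a poly(A) tail, with 40 bases before it and 30 after it.
Malat1-201, bases 6634 to 6715: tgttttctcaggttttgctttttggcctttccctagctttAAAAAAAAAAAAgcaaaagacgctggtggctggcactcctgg
T-rich stretches stand to its left, and the tRNA-like RNA lies to its right. The 8 tested genes for this maturation include RNase P subunits, the tRNA 3′ processing enzyme Elac2 and the triple-helix binder Mettl16. None was called by edgeR or DESeq2, and 3 had an unadjusted p under 0.05. Over all genes tested, 18.4% were called and 3965 of 13052 had such a p. Of the 3 in this list, Elac2 and Rpp30 were higher in KO and the RNase P subunit gene Rpp21 was lower (log2 fold change -0.75, SE 0.35). The median of those tested was 0.12, and it was -0.07 without KO 1 and 0.36 without KO 2. Elac2 had 21.9 ± 0.819 CPM in KO and 14.8 ± 1.16 CPM in fl/fl, a log2 fold change of 0.56 (SE 0.22, adjusted p = 0.0908), called without KO 1 at 0.58. The RNase P subunit gene Rpp30 was at 0.79 (SE 0.32, adjusted p = 0.099), called without KO 1 at 0.98, and Pop5, the most abundant of this list, was at -0.16 (SE 0.22).

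Neat1 was called lower as well, but narrowly. It had 327 and 301 counts in KO against 455 and 380 in fl/fl, or 45.8 and 44.2 CPM in KO and 64.2 and 54.9 CPM in fl/fl. The genotypes did not overlap, and the fl/fl libraries were further from each other than the KO libraries. The mean was 45.0 ± 1.16 CPM in KO and 59.6 ± 6.57 CPM in fl/fl (SD, n = 2 each), a fold of 0.755 with a 95% interval of 0.619 to 0.919. On the log2 scale it fell by 0.41 (SE 0.13, edgeR quasi-likelihood test, adjusted p = 0.046). The direction held in all 12 alternatives and the call in 5 of them. It was lost without fl/fl 1 (log2 fold change -0.30, adjusted p = 0.542) and without fl/fl 2 (-0.52, adjusted p = 0.12), and with a transcript length offset the log2 fold change was -0.23 (adjusted p = 0.294). The ratio of Malat1 to Neat1 counts was 10.1 and 11.0 in KO and 11.0 and 12.7 in fl/fl, so that KO 2 and fl/fl 1 were nearly level. The exact permutation test over 2 against 2 libraries cannot give a two-sided p below 0.333.

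Neat1 makes a short polyadenylated form and a long form without a poly(A) tail, and the long form builds the paraspeckle. GENCODE M21 lists Neat1-201 with 20771 bases and Neat1-202 with 3004 bases, and the counts do not separate them. Both genes lie on the minus strand of mouse chromosome 19. Frmd8, a coding gene next to Neat1, was not called and had 360 and 367 counts in KO and 284 and 276 in fl/fl (log2 fold change 0.38, SE 0.14, adjusted p = 0.066). It was called when scaled by library size alone (0.44) and without KO 1 (0.42). The annotated gene Gm37376 overlaps 6.49% of the Malat1 exon length on the opposite strand and had 435 and 444 counts in KO against 615 and 606 in fl/fl. It fell by 0.47 on the log2 scale (SE 0.11, adjusted p = 0.0059), and the call was lost without fl/fl 1 (-0.49, adjusted p = 0.065) or fl/fl 2 (-0.47, adjusted p = 0.089). The strand setting of the counting is not given, so reads of Malat1 and of Gm37376 in the overlap cannot be told apart.

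**Figure D1:**
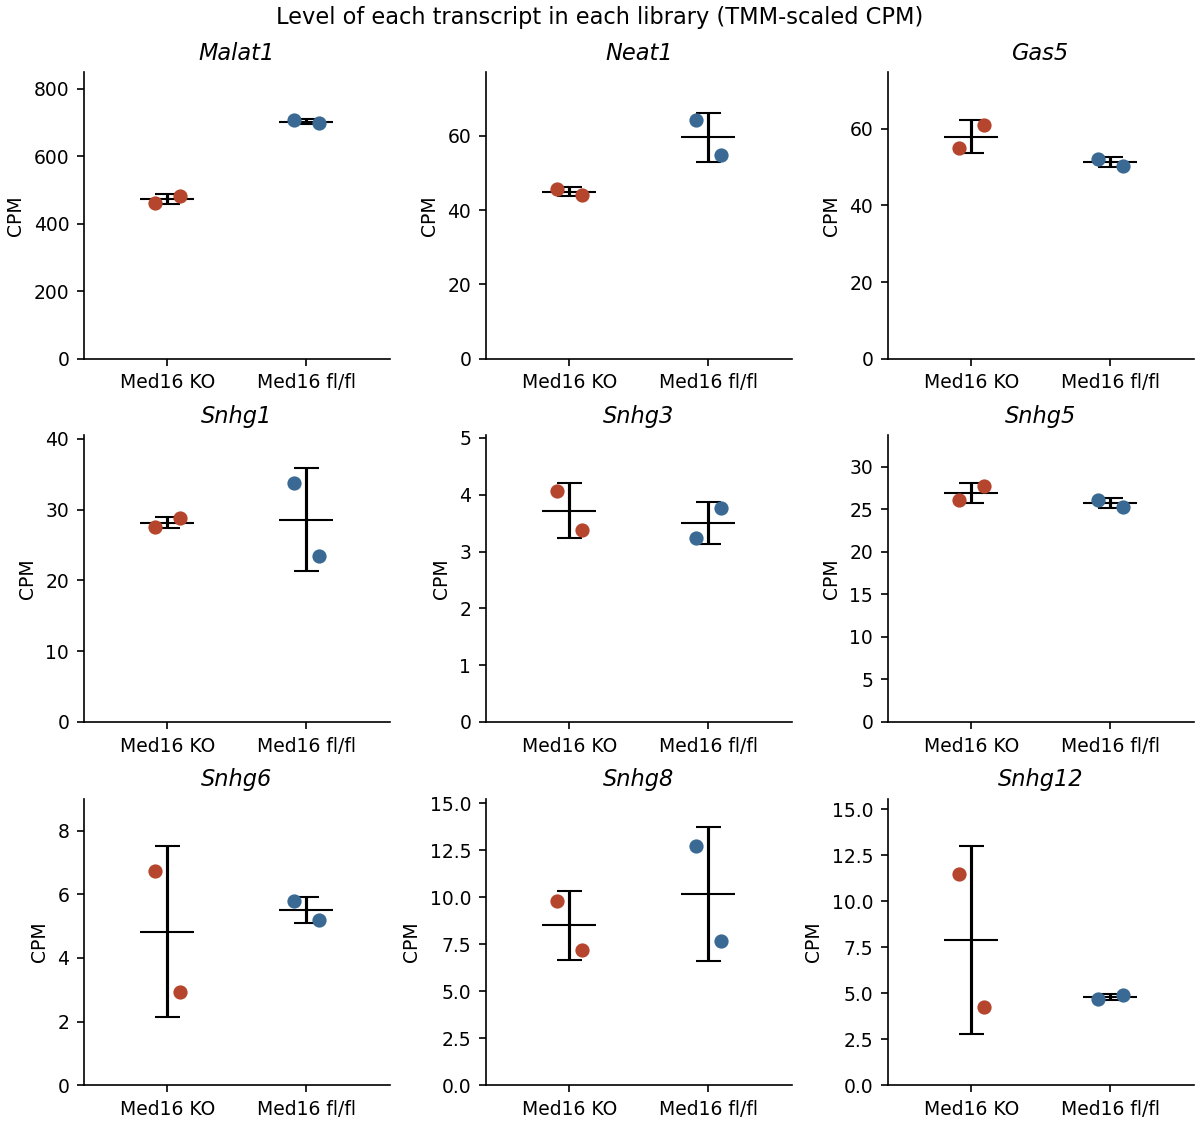
Level of each of the 9 transcripts in each library, in TMM-scaled CPM on linear axes from 0. Points are libraries, the long bar is the mean and the whiskers are the SD of 2 libraries, with Med16 KO left of Med16 fl/fl. Malat1 sits at 462 and 484 CPM in KO and at 707 and 698 CPM in fl/fl, while the points of Snhg6 and Snhg12 lie far apart within KO.

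None of the 7 snoRNA hosts had an unadjusted p under 0.05 in Med16 KO, beside 3965 of the 13052 genes tested. None of the 7 was called by edgeR or by DESeq2, which gave no adjusted p for 1 of them. With KO 2 left out, 1 was called higher (Snhg12, described with its counts below). Together the 9 transcripts thus gave 2 lower and none higher, against 9.89% lower and 8.5% higher over all genes tested, and their median log2 fold change was -0.02, beside 0.02 over all genes (0.16 with a GC content offset, -0.27 without fl/fl 2). Libraries of the genotypes did not overlap for 3 of the 9 (Malat1, Neat1 and Gas5), beside 57.6% of all genes. The summed level of the 7 hosts was 141 and 135 CPM in KO and 138 and 121 CPM in fl/fl, and the genotypes overlapped. Malat1 counts equalled 3.28 and 3.58 times the summed host counts in KO and 5.11 and 5.79 times in fl/fl. This ratio does not depend on how libraries are scaled, and it was lower in both KO libraries than in either fl/fl library.

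The starts of these hosts are shown because an oligopyrimidine start is described for several such genes, Gas5 among them. The sequences come from RefSeq (build GRCm38.p6), which held a start for 7 of the 9 members, and each runs from 30 bases before to 30 bases from the annotated first base. Capitals mark the unbroken run of pyrimidines, C or T, that begins at that first base, and Malat1 is given for comparison.
Malat1, chr19:5802643-5802702, minus strand: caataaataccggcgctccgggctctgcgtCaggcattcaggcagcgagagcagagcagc
Gas5, second start, chr1:161035136-161035195, plus strand: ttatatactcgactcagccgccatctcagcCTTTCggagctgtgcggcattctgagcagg
Snhg1, chr19:8723457-8723516, plus strand: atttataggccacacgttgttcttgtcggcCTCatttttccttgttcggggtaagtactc
Snhg5, chr9:88522868-88522927, minus strand: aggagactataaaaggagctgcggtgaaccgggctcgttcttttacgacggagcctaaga
Snhg8, chr3:123508307-123508366, minus strand: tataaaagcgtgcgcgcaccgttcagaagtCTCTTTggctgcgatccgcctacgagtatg
Snhg12, chr4:132308648-132308707, plus strand: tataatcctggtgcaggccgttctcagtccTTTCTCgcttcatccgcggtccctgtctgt
A C followed by pyrimidines to a run of at least 5 stood at 2 of the 7 annotated host starts (the second of Gas5 and that of Snhg8). It stood at 1 of 13 starts of the other noncoding hosts and at 2.51% of the 32851 promoters. That other host was Snhg7, a symbol absent from the count tables, so it has no level here. Snhg12 had a run of 6 that began with T, Snhg1 a run of 3 and Malat1 a run of 1. Snhg3, Snhg5 and the first annotated start of Gas5, not shown, had G at the first base and so no run.

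Short motifs were then searched in the whole window of 250 bases before to 50 after the start, on both strands. TATAAA stood in the windows of Snhg1, Snhg3, Snhg5 and Snhg8 and in 13.6% of all promoters. On either strand, it began 20 to 35 bases before the first base in 3 of the 7 host starts (Snhg1, Snhg5 and Snhg8). The match of Snhg1 was on the strand opposite to the gene (TTTATA), those of Snhg5 and Snhg8 on the gene's own strand. Such a match, on either strand, stood at 1 of 13 starts of the other noncoding hosts (Snhg7 again) and 2.26% of all promoters. The window of 20 to 35 bases was chosen after the sequences were seen. GGAAGT, the core bound by ETS factors, stood in the windows of Malat1 and Snhg3 and in 23.8% of all promoters. CACGTG (7.15% of all promoters), the NRF-1 motif (0.971%), AGATAA (11.2%) and CCACCC (31.5%) stood in none of the members' windows. These are matches of letters only. No match overlapped another in these windows.

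Gas5, the most abundant host by counts, carries 10 annotated snoRNA genes within its bounds. It had 392 and 416 counts in KO against 370 and 348 in fl/fl, or 54.9 and 61.0 CPM in KO and 52.2 and 50.3 CPM in fl/fl. Both KO libraries lay above both fl/fl libraries. The mean was 58.0 ± 4.33 CPM in KO and 51.3 ± 1.35 CPM in fl/fl (SD, n = 2 each), a fold of 1.13 with a 95% interval of 0.936 to 1.36 that includes no change. The log2 fold change was 0.18 (SE 0.13, edgeR adjusted p = 0.39), and it was positive and not called in all 12 alternatives.

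Snhg5, host of a pair of snoRNAs of the box C/D class, had 186 and 189 counts in KO against 185 and 175 in fl/fl, which is 26.9 ± 1.19 CPM in KO and 25.7 ± 0.574 CPM in fl/fl. The genotypes overlapped, and the fold of 1.05 had a 95% interval of 0.802 to 1.36. Snhg1, which carries 8 annotated snoRNA genes, had 197 and 196 counts in KO against 239 and 162 in fl/fl. The KO libraries lay between the fl/fl libraries, with means of 28.2 ± 0.823 CPM in KO and 28.6 ± 7.29 CPM in fl/fl. Its fold of 0.985 had a 95% interval of 0.736 to 1.32, and its direction turned with the setting: it was -0.27 without fl/fl 2 and 0.25 without fl/fl 1 on the log2 scale.

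The remaining hosts rested on few counts. Snhg8, host of Snora24, had 70 and 49 counts in KO against 90 and 53 in fl/fl, with means of 8.49 ± 1.85 CPM in KO and 10.2 ± 3.56 CPM in fl/fl. The genotypes overlapped, and the fold of 0.835 had a 95% interval of 0.507 to 1.37. Without fl/fl 1 the log2 fold change was 0.14 in place of -0.26. Snhg3, host of the Snora73 pair, had 29 and 23 counts in KO against 23 and 26 in fl/fl, the fewest of the 9. Its fold of 1.06 had a 95% interval of 0.499 to 2.26, the widest on the log2 scale of the 9. Its direction turned without KO 1 (-0.07) and without fl/fl 1 (-0.03).

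Snhg6 and Snhg12 differed most between the KO libraries. Snhg6, host of Snord87, had 48 and 20 counts in KO against 41 and 36 in fl/fl. The exact Poisson 95% intervals of the KO counts, 35.4 to 63.6 and 12.2 to 30.9, did not overlap, so these libraries differed beyond counting error, which is all that such intervals cover. The mean was 4.83 ± 2.68 CPM in KO and 5.5 ± 0.412 CPM in fl/fl (log2 fold change -0.18, SE 0.46). Without KO 1 it was -0.91 and without KO 2 it was 0.28, neither called.

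Snhg12, which carries 5 annotated snoRNA genes, had 82 and 29 counts in KO against 33 and 34 in fl/fl. KO 1 stood apart at 11.5 CPM, while KO 2 at 4.25 CPM lay below the fl/fl libraries at 4.66 and 4.92 CPM. Poisson intervals of 65.2 to 102 counts for KO 1 and 19.4 to 41.6 for KO 2 did not overlap. The log2 fold change was 0.72 (SE 0.45, edgeR adjusted p = 0.31), and it rested on that library. Without KO 2 it was 1.25 and called (adjusted p = 0.0021), and without KO 1 it was -0.18 (adjusted p = 0.80). Trnau1ap, the coding gene next to Snhg12 on the opposite strand, had 80 and 73 counts in KO against 81 and 78 in fl/fl (log2 fold change -0.05, SE 0.28), so KO 1 did not stand apart there.

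**Figure D2:**
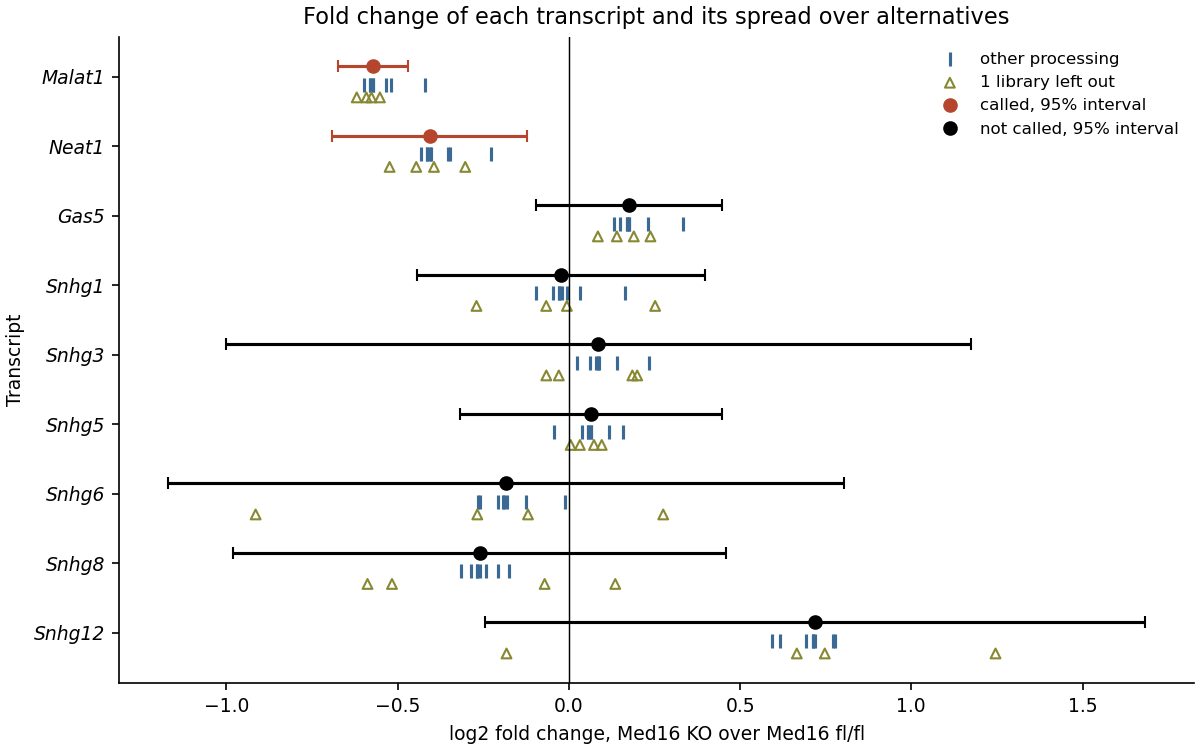
Log2 fold change of Med16 KO over Med16 fl/fl for each transcript. Circles are the edgeR estimates with 95% intervals, in red where called; ticks are the 8 other processing settings and triangles the fits without 1 library. Malat1 stays between -0.62 and -0.42 in all of them, while Snhg12 runs from -0.18 to 1.25 with the KO library left out.

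Levels were compared between genes per kilobase of annotated exon (union of exons in GENCODE M21, retained introns included). In KO, Malat1 had 67.7 ± 2.22 CPM per kb, followed by Snhg5 with 15.5 ± 0.686 and Gas5 with 15.4 ± 1.15. In fl/fl, Malat1 had 100.6 ± 0.941 CPM per kb, followed by Snhg5 with 14.9 ± 0.332 and Gas5 with 13.6 ± 0.36. On this scale Neat1 was near the bottom, with 2.17 ± 0.0557 CPM per kb in KO and 2.87 ± 0.316 in fl/fl, since its length counts the whole long form. The order in fl/fl was Malat1, Snhg5, Gas5, Snhg8, Snhg1, Snhg6, Snhg3, Neat1 and Snhg12. Neighbours in that order whose ranges of mean ± SD met were Gas5 with Snhg8 and Snhg8 with Snhg1. In KO the last places were Snhg6, Snhg3, Snhg12 and Neat1, and each met its neighbour within 1 SD, as did Snhg5 with Gas5 and Snhg8 with Snhg1.

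**Figure D3:**
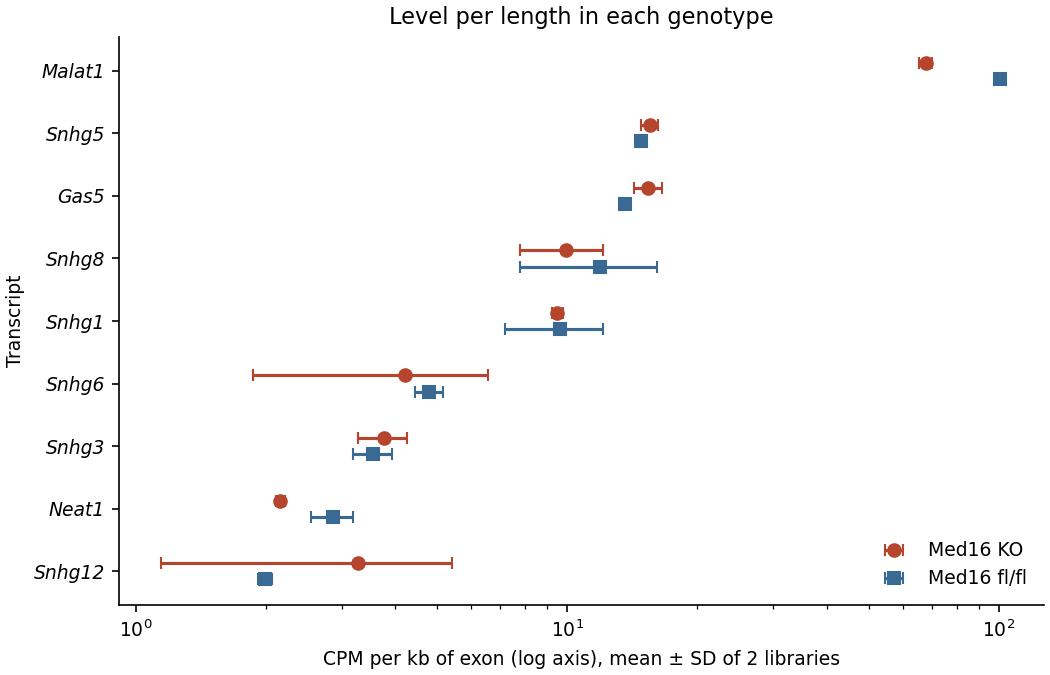
Level per kilobase of exon on a log axis for each transcript, with Med16 KO circles above Med16 fl/fl squares and whiskers of 1 SD over 2 libraries. Malat1 stands alone at 67.7 CPM per kb in KO and 100.6 in fl/fl, with the mean of every other transcript under 16.

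The snoRNAs themselves had very few counts. As background, mature snoRNAs have no poly(A) tail, and most of those inside the hosts overlap annotated host exons; the part of either in these low counts was not tested. Of 145 genes with Snord or Snora names, 29 had a count in any library and none entered the test. Their counts summed to 14 and 36 in KO and to 58 and 50 in fl/fl. Of 25 snoRNA genes that lie inside the members and are in the count tables, 2 had any count. The sums of these were 0 and 0 in KO, which allows up to 3 counts over these genes, or 0.42 and 0.44 CPM, and 4 and 2 in fl/fl. In GENCODE M21 the exons of Snhg1, Snhg8 and Snhg12 merge into 1 block each, so host counts can include RNA that retains introns. They say nothing of the amount of mature snoRNA.

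Genes that overlap or flank the hosts went different ways. Slc3a2, an amino acid transporter subunit gene that lies 106 bases from Snhg1 on the opposite strand, had 250 ± 10.9 CPM in KO and 292 ± 2.22 CPM in fl/fl and fell by 0.22 on the log2 scale (SE 0.06, edgeR adjusted p = 0.020). That call was lost when scaled by library size alone (-0.17), without fl/fl 1 (-0.23) and without fl/fl 2 (-0.24). Wdr74, on the other side of Snhg1, rose by 0.99 (SE 0.25, adjusted p = 0.013), with 133 and 155 counts in KO against 85 and 61 in fl/fl. The call was lost without fl/fl 2 (0.77). Snhg1 between them was at -0.02.

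Snhg3 is the least certain member by position. Gm17300 overlaps 71.5% of its exon length on the opposite strand, and Rcc1, the chromatin factor that loads Ran with GTP, overlaps 13.7% on the same strand. Gm17300 had 43 and 40 counts in KO against 93 and 71 in fl/fl and fell by 0.97 on the log2 scale (SE 0.32, edgeR adjusted p = 0.046), while Rcc1 was at -0.02 (SE 0.11). The call of Gm17300 was lost without fl/fl 1 (-0.80), without fl/fl 2 (-1.15), when scaled by library size alone (-0.92), with a GC content offset (-0.89) and by DESeq2 (-0.98). With the strand setting unknown, reads of Snhg3 and Gm17300 in the overlap cannot be told apart. Phactr4, next to Snhg3, fell by 0.43 (SE 0.13, adjusted p = 0.038) and Sgk3, next to Snhg6, fell by 0.31 (SE 0.10, adjusted p = 0.039). Both calls were lost, among other settings, without fl/fl 1 (-0.40 and -0.36), without fl/fl 2 (-0.48 and -0.28) and without KO 2 (-0.32 and -0.23). Mcmdc2, which overlaps 11.1% of Snhg6 on the opposite strand, had 29 and 11 counts in KO against 26 and 39 in fl/fl and was called lower without KO 1 alone (-1.53). Zbtb37 and Serpinc1 at Gas5 and Syncrip and Zfp949 at Snhg5 were not called, with log2 fold changes of -0.53, -0.18, 0.03 and -0.57. Zfp949, with 228 and 99 counts in KO against 246 and 237 in fl/fl, was called without KO 1 (-1.26), with the replicate block (-0.64) and with no low-count filter (-0.59).

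**Figure D4:**
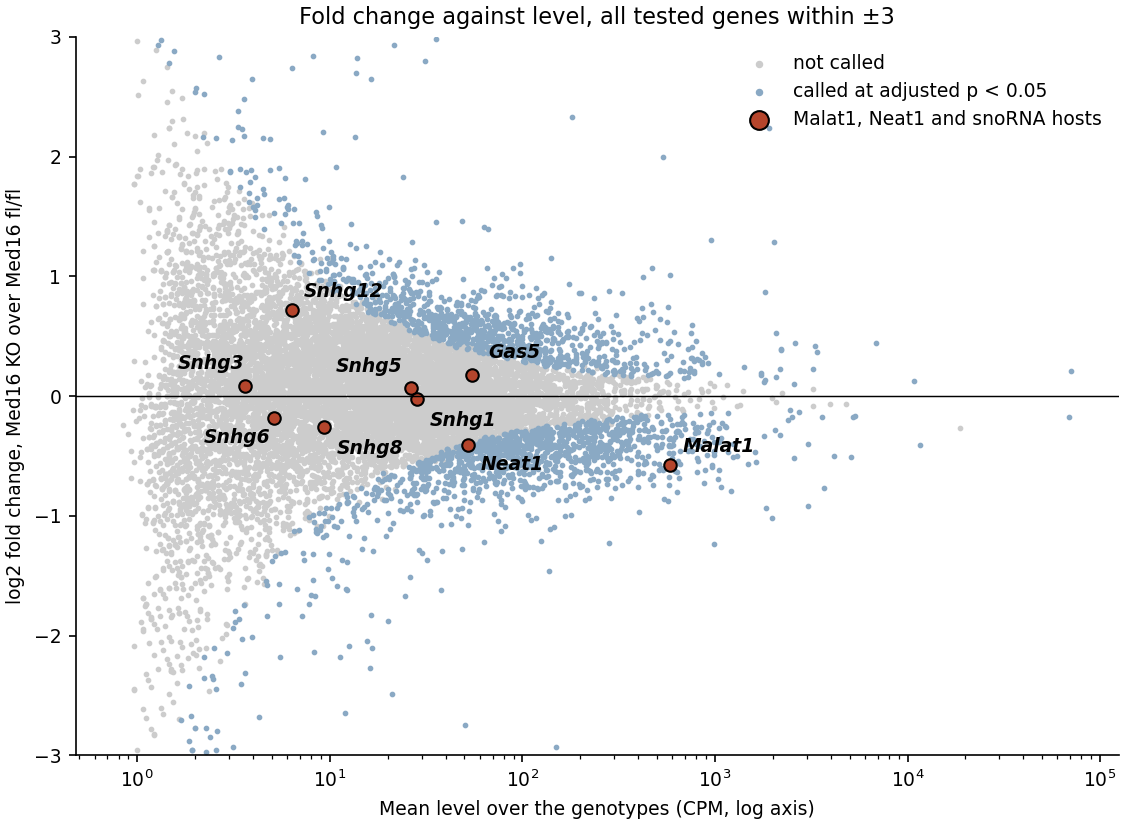
Log2 fold change of Med16 KO over Med16 fl/fl against mean level in CPM (log axis) for 12966 tested genes with a fold change within 3 on the log2 scale; 86 genes lie beyond. Blue points are called, grey are not, and the 9 transcripts are in red: Malat1 lies within the called genes of high level, Neat1 at their edge, and the hosts among the genes not called.

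Neither list of other noncoding RNAs gave a call, beside 18.4% of all genes tested (3965 of 13052 at an unadjusted p under 0.05). Of the 17 tested in both lists, 14 had fewer than 120 counts in every library, so the lack of a call says little about them. Of 14 other noncoding snoRNA host entries 9 were tested, and none was called by edgeR or at an unadjusted p under 0.05, nor by DESeq2, which gave no adjusted p for 5 of them. Their median log2 fold change was 0.19, but 0.03 with a GC content offset and -0.08 with no low-count filter. Zfas1, the most abundant, had 25.6 ± 2.56 CPM in KO and 19.8 ± 2.19 CPM in fl/fl (0.37, SE 0.20), and Snhg17 was at 0.56 (SE 0.40). Without KO 1, 1 of this list was called.

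Of 8 other nuclear long noncoding RNAs tested, 1 had an unadjusted p under 0.05, beside 3965 of all 13052 genes. None of the 8 was called by edgeR, beside 18.4% of all genes, or by DESeq2, which gave no adjusted p for 4. Their median was -0.40, and -0.15 without KO 2. Tug1 had 58.9 ± 1.51 CPM in KO and 72.4 ± 1.03 CPM in fl/fl, a log2 fold change of -0.30 (SE 0.11, edgeR adjusted p = 0.081). Norad was counted in this list and its median, although it is mostly cytoplasmic and binds Pumilio proteins. It had 70.7 ± 9.11 CPM in KO and 58.9 ± 5.24 CPM in fl/fl (0.26, SE 0.13, edgeR adjusted p = 0.18). Without KO 1, 4 of this list were called, Tug1 at -0.34 and Norad at 0.38 among them, and without KO 2, 1 was.

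Genes for proteins of the bodies that Malat1 and Neat1 belong to were lower where they were called. Of 15 paraspeckle protein genes 6 fell and none rose, beside 9.89% lower and 8.5% higher over all genes tested. Such shares, here and below, cover genes of all levels, and genes of like level were not compared. The median log2 fold change of the 15 was -0.22. Tardbp, which encodes TDP-43, fell to 178 ± 19.0 CPM in KO, against 262 ± 4.45 CPM in fl/fl (-0.56, SE 0.08, edgeR adjusted p = 8.7e-05). Hnrnph1 fell by 0.38 (SE 0.06, adjusted p = 0.00038), a call lost with a GC content offset at -0.17, and Sfpq fell by 0.28 (SE 0.05, adjusted p = 0.0014). Sfpq was chosen after its values were seen, as was Nono, its partner and a core paraspeckle protein gene, at -0.02 (SE 0.07). Hnrnpk, the most abundant, was at -0.12 (SE 0.05, adjusted p = 0.109), called without KO 2 at -0.14. The count of falls was 4 without fl/fl 1, 4 without fl/fl 2 and 4 when scaled by library size alone.

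Of 10 nuclear speckle genes 5 fell and none rose, with a median of -0.24 (-0.14 with a GC content offset); without KO 1, 1 was higher. Srsf1, a splicing factor gene, had 388 ± 7.98 CPM in KO and 506 ± 12.01 CPM in fl/fl (log2 fold change -0.38, SE 0.05, edgeR adjusted p = 8.4e-05). Son, which encodes a scaffold of speckles, had 358 ± 11.9 CPM in KO and 459 ± 22.2 CPM in fl/fl (-0.36, SE 0.06, adjusted p = 0.00032). These falls stand beside 9.89% of all genes called lower.

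Coding snoRNA hosts, most of them genes of ribosomal proteins and translation factors, gave 6 higher and 2 lower of 22, beside 8.5% higher and 9.89% lower over all genes. Their median log2 fold change was 0.13, and 0.07 without fl/fl 2, 0.07 without KO 2 and 0.03 with a transcript length offset. Scaled by library size alone, 10 were higher and 2 lower, and with a transcript length offset 4 were higher and 3 lower. Eef2, the elongation factor that moves the ribosome along, had 2331 ± 29.5 CPM in KO and 1997 ± 21.2 CPM in fl/fl (0.22, SE 0.03, edgeR adjusted p = 0.00015), a call lost with a GC content offset at 0.01. Hspa8, a chaperone gene, fell to 831 ± 29.6 CPM in KO, against 1141 ± 40.4 CPM in fl/fl (-0.46, SE 0.04, adjusted p = 2.1e-06).

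None of the 4 box C/D core genes, whose proteins turn snoRNAs into working particles, was called by edgeR or DESeq2. An unadjusted p under 0.05 was found for 2 of them, beside 3965 of all 13052 genes tested. These 2 were Fbl, the methyltransferase fibrillarin, at 0.31 (SE 0.13) and Nop58 at 0.28 (SE 0.12). Fbl was called without KO 1 (0.40), and Nop58 without KO 2 (0.32), with the GC content offset (0.46) and the length offset (0.36). Nop56, the most abundant, was at -0.04 (SE 0.12).

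Of the 4 box H/ACA genes, Dkc1, the pseudouridine synthase dyskerin and itself a snoRNA host, fell to 49.0 ± 7.0 CPM in KO, against 73.9 ± 0.143 CPM in fl/fl (log2 fold change -0.59, SE 0.13, edgeR adjusted p = 0.0039). Its partner Nhp2 rose to 42.1 ± 10.6 CPM in KO, against 27.1 ± 1.76 CPM in fl/fl (0.63, SE 0.19, adjusted p = 0.027). The call of Nhp2 was lost without fl/fl 1 (0.69), fl/fl 2 (0.56) or KO 1 (0.34), and with a GC content offset (0.50). Of 10 snoRNP assembly factors none was called by edgeR or DESeq2, with a median of 0.26. Their 2 with an unadjusted p under 0.05 stand beside 3965 of all 13052 genes tested. Ruvbl2 was at 0.46 (SE 0.16, adjusted p = 0.062), Pih1d1 at 0.39 (SE 0.17) and Nolc1, the most abundant, at 0.25 (SE 0.12). Ruvbl2 was called when scaled by library size alone (0.51), with the replicate block (0.46) and without KO 2 (0.50), and Pih1d1 without KO 1 (0.52).

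Genes of nonsense-mediated decay, the pathway that degrades the spliced host RNAs, gave 1 higher and 2 lower of 15, beside 18.4% called either way over all genes. Their median was -0.09 on the log2 scale. In the fits without 1 library it ran between -0.17 without KO 1 and -0.05 without KO 2. It was -0.18 with a GC content offset and -0.04 when scaled by library size alone. The count of calls was 0 without fl/fl 1 or fl/fl 2 and 6 without KO 2. By DESeq2 it was 0, while 7 had an unadjusted p under 0.05 by edgeR, beside 3965 of all 13052 genes tested. Eif4a3, a core protein gene of the exon junction complex, had 90.6 ± 6.75 CPM in KO and 70.6 ± 0.923 CPM in fl/fl (0.36, SE 0.11, edgeR adjusted p = 0.028), with values of 0.36, 0.34 and 0.27 that were not called without fl/fl 1, fl/fl 2 and KO 1. Upf2 had 40.9 ± 1.54 CPM in KO and 55.4 ± 6.74 CPM in fl/fl (-0.44, SE 0.14, adjusted p = 0.041), at -0.32 and -0.57 and not called without fl/fl 1 and fl/fl 2. Upf1, the helicase of the pathway and its most abundant member here, was at -0.09 (SE 0.08), and called with a GC content offset at -0.32.

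**Figure D5:**
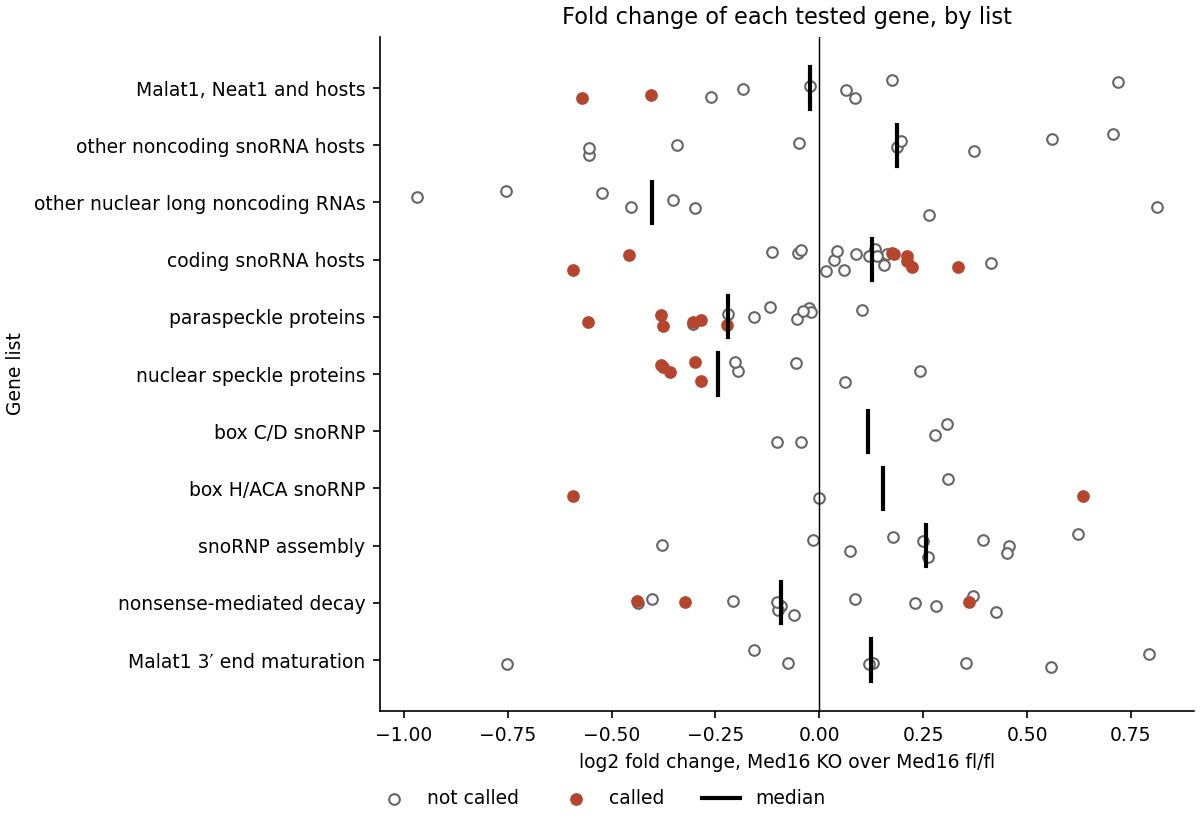
Log2 fold change of Med16 KO over Med16 fl/fl for each tested gene in the 9 transcripts and 10 related lists. Filled points are called, open points are not, and bars are medians. The called points of the paraspeckle and nuclear speckle lists all lie below 0, with medians of -0.22 and -0.24, and the coding snoRNA hosts have called points on both sides.

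The genes most like Malat1, Neat1 and Gas5 over the 4 libraries were found by the root mean square difference of log2 CPM, each centred on its own mean, among 3245 genes with a mean of at least 50 CPM. Closest to Malat1 were Cdc42ep3 and Metap2, which fell by 0.56 and 0.57 at distances of 0.0108 and 0.0121. Closest to Neat1 were Dna2, Ogfr and Xpo4, which fell by 0.45, 0.44 and 0.43 at distances of 0.0242, 0.0258 and 0.0317. Closest to Gas5 were F13a1, Dennd5a and the coding snoRNA host Rps20, at 0.17, 0.17 and 0.16, none of them called. With 4 libraries in 2 genotypes such likeness rests on few values. The genes were picked by these same values, so a like fold change and a like response to leaving out a library follow from the choice. The calls of Dna2, Ogfr and Xpo4 were lost without fl/fl 1 (-0.35, -0.36 and -0.37) and without fl/fl 2 (-0.56, -0.54 and -0.52), as was that of Neat1, and Rps20 was called without KO 1 (0.21), when scaled by library size alone (0.21) and with a GC content offset (0.33).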

How the data were processed

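The authors deposited raw counts for each library. The submitters' processing notes name build GRCm39, HTSeq 0.12.4, HISAT2 2.1.0, FastQC 0.11.7, HOMER and DESeq2; the strand setting and the annotation release were not found there. The 5 rows that name no gene (67.3% to 67.7% of each table's total) entered no library size or test. Ambiguous reads made up 2.96% and 2.93% in KO and 2.54% and 2.58% in fl/fl. Reads not aligned made up 2.69% and 3.27% in KO and 1.05% and 0.83% in fl/fl. Genes with a count numbered 16892 and 16479 in KO and 18947 and 19016 in fl/fl. The genotypes did not overlap in these traits, and the part of that in the results was not tested. The analysis used R 4.3.3 and edgeR 4.0.16 (filterByExpr by genotype, TMM, quasi-likelihood test, two-sided, Benjamini-Hochberg over 13052 genes). The SE is the log2 fold change over the square root of F. DESeq2 1.42.0 was an alternative. The procedure was checked on simulated counts. Lengths, GC content (98.4% of tested genes) and neighbours came from GENCODE M21 (GRCm38), matched by identifier. Replicate libraries differed beyond sampling noise (chi-square per degree of freedom 6.63 in KO and 2.73 in fl/fl). The members, the 17 other lists and the rule for named genes (Med16, per list the 2 smallest adjusted p and the highest mean, neighbours, and genes most alike) were chosen with earlier results of these data known. Marker and early genes are given as list values only. Some results that the rule for named genes covers are not reported here.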

Additional observations from a re-analysis of the deposited data

How the results depend on the processing

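The 9 members gave 107 values under the alternatives, of which 89 kept direction and side of the threshold, 8 were no longer called, 1 became called and 9 turned direction; 1 value, for Snhg3, was not given by DESeq2. Of the 9, Snhg1 turned with library size only (0.032), with a GC content offset (0.17) and without fl/fl 1 (0.25), Snhg5 with a transcript length offset (-0.042), and the other 5 without 1 library. Without 1 library, Snhg1 ranged over -0.27 to 0.25, Snhg3 over -0.066 to 0.20, Snhg6 over -0.91 to 0.28, Snhg8 over -0.59 to 0.14 and Snhg12 over -0.18 to 1.25. The count of members called lower, 2, was 1 with library size only, DESeq2, a GC content or a transcript length offset, and 0 with an assumed coefficient of variation of 0.2; without 1 library it ranged from 1 to 2 and the count called higher from 0 to 1. The cause was not tested.

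Over all genes, 733 were higher with a GC content offset, and 331 higher and 289 lower with the assumed coefficient of 0.2; without 1 library 454 to 1839 were higher and 704 to 2172 lower. Library size as the only scaling gave 56.4% of calls higher in place of 46.2%. With the assumed coefficient the calls of the lists were 0 for coding snoRNA hosts, paraspeckle, nuclear speckle, box H/ACA, decay and B lineage genes, 1 for erythroid, monocyte and immediate early genes, and 4 for neutrophil genes. Decay genes gave 0 by DESeq2 and 1 with library size only or a transcript length offset, and box H/ACA and box C/D genes 1 each with a GC content offset. Box C/D genes also gave 1 with a transcript length offset, and assembly factors 1 with library size only or the replicate block. B lineage genes gave 0 by DESeq2 and with either offset and 2 with no filter or the block, and megakaryocyte genes 4 by DESeq2. Without 1 library, calls ranged from 0 to 6 for decay, 0 to 4 for B lineage and other nuclear noncoding RNAs, 0 to 1 for box C/D, assembly and other host genes, 0 to 2 for Malat1 maturation, 1 to 2 for box H/ACA and 4 to 6 for megakaryocyte genes.

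Among other named genes, direction turned for Hnrnpk with a GC content offset (0.023), for Nop56 (0.0093), Rcc1 (0.033) and Trnau1ap (0.0026) with library size only, and for Syncrip with no filter (-0.000405). Without 1 library, ranges that crossed 0 were -0.19 to 0.067 for Nop56, -0.44 to 0.16 for Pop5, -0.12 to 0.043 for Rcc1, -0.47 to 0.039 for Serpinc1 and -0.048 to 0.077 for Syncrip. Whether same-numbered libraries were paired is not known. Their deviations correlated at -0.01 over all tested genes, genes of low count included, which cannot settle it. With the replicate block 1268 genes were higher and 1499 lower. Malat1 was then at -0.57 and Neat1 at -0.40, and no call of a member changed. Fits without 1 library assume that the lone library varies like the other genotype. At 20 to 90 counts, Snhg3, Snhg6, Snhg8 and Snhg12 allow wide folds.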

Other observations

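The members' share of assigned counts was 0.0668 ± 0.000262% in KO and 0.0875 ± 0.00256% in fl/fl (SD, n = 2 each), and 0.0803 ± 0.000873% against 0.104 ± 0.00304% when globin counts were left out. Malat1 made up 71.2% and 72.9% of the members' counts in KO and 77.7% and 79.9% in fl/fl. Gas5 made up 39.0% and 45.1% of the host counts in KO and 37.7% and 41.7% in fl/fl, so its share overlapped between genotypes.

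Among 17 other tested noncoding RNAs, KO library 2 lay below KO library 1 for 11, and among the 14 of them with fewer than 120 counts in every library for 10. In fl/fl, library 2 lay below library 1 for 7 and 6 of these. Over all tested genes the median size of the log2 difference was 0.25 between the KO libraries and 0.16 between the fl/fl libraries.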
